A study of Mus musculus with 11 samples.

Results

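CpG methylation at 4706 single CpGs was compared between chromatin marked by H3K9me3 and chromatin marked by H3K4me1 in mouse E14 embryonic stem cells. The study used CUT&Tag-BS, in which an antibody against a histone mark directs a Tn5 transposase to the marked chromatin, and the DNA cut out there is treated with bisulfite so that methylated and unmethylated cytosines can be told apart in the same reads. E14 is an established line of 129/Ola background, grown here in medium with fetal bovine serum and Leukemia Inhibitory Factor. Each mark had 1 library, made from 250000 untreated E14 cells of the same kind, with anti-H3K4me1 in the first and anti-H3K9me3 in the second. The 75-bp paired-end run (run 2) of each library was used, because run 1 sequenced the same library again with shorter reads. A CpG was kept where it lay on chromosomes 1 to 19 and had at least 5 methylation calls in each library, which left 4706 of the 20383623 CpGs listed (0.0231%). A level is the percent of calls at a CpG that were methylated, a difference is the H3K9me3 level minus the H3K4me1 level in percentage points, and a CpG is called higher in a library where the difference reached 50 points. Coordinates are on mm10.

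H3K9me3 is a mark of constitutive heterochromatin, and it is laid down over repeats, retroelements, zinc finger gene clusters and the DNA-methylated copy of imprinted control regions. H3K4me1 marks enhancers and the flanks of active promoters, where DNA methylation is usually low. At an imprinted control region the parental copies differ in DNA methylation, so a bulk sample holds a methylated and an unmethylated copy of the same CpGs.

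The CpG-bearing DNA behind the results is shown for 4 gene starts, chosen because they hold covered CpGs that were higher in H3K9me3 (Gm34081, Gm31684, Kcnq1ot1) or that were near 0% in both libraries (Trim24). Each sequence runs from 250 bases before the gene start to 50 after it, as RefSeq gives it on GRCm38.p6, 5′ to 3′ on the gene's strand. Capitals mark the covered CpGs, and CpGs in lower case had fewer than 5 calls in at least 1 library.
Gm34081, chr12:109526220-109526519, minus strand: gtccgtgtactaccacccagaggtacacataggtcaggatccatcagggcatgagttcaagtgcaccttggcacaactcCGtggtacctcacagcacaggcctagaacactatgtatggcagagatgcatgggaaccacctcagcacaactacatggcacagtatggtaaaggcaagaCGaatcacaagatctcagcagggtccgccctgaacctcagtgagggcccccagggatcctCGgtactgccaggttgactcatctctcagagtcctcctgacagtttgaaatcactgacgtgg
Gm31684, chr5:64816588-64816887, plus strand: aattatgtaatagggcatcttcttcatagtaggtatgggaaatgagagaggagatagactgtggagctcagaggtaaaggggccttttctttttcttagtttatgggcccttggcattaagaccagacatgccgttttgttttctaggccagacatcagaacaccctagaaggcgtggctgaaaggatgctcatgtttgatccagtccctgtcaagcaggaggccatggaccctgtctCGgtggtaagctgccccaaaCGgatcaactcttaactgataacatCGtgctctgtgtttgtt
Kcnq1ot1, chr7:143296498-143296797, minus strand: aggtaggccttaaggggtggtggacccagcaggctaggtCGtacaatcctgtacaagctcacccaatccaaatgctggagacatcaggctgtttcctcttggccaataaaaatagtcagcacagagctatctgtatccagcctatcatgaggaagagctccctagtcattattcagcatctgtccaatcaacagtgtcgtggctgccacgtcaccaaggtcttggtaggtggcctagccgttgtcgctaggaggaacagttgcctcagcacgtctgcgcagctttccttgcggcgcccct
Trim24, chr6:37870561-37870860, plus strand: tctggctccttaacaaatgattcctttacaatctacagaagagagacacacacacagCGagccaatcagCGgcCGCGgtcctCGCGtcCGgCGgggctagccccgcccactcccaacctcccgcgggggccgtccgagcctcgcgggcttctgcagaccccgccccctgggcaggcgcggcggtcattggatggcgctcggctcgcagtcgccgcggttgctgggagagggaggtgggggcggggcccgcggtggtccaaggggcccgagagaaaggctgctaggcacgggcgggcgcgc
Gm34081 is a long non-coding RNA gene between the imprinted genes Dlk1 and Meg3. All 3 of its capital CpGs were higher in H3K9me3, with 1 of 20 calls methylated in H3K4me1 (5%) and 21 of 21 in H3K9me3 (100%). Gm31684 is a non-coding gene inside Klf3. Of its 3 capital CpGs 1 was higher in H3K9me3, and the summed levels were 12.9% of 31 calls and 56% of 25 calls. Kcnq1ot1 is the paternally expressed antisense RNA of the Kcnq1 domain. Its single capital CpG had 0 of 6 calls methylated in H3K4me1, which allows a level of up to 50%, and 7 of 9 in H3K9me3 (77.8%). Trim24 encodes a transcriptional co-regulator. Over its 8 capital CpGs 0 of 40 calls were methylated in H3K4me1 and 1 of 156 in H3K9me3 (0.641%). The 0 of 40 allows up to 7.5% only if calls are independent, and these close CpGs can share reads.

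The H3K4me1 library held 9573835 calls on chromosomes 1 to 19, with 563737 CpGs at 5 calls or more. The H3K9me3 library held 6065726 calls, with 208944 such CpGs. Over all CpGs covered in each library, whether or not the other library covered them, 32.6% of calls on chromosomes 1 to 19 were methylated in H3K4me1 and 81.7% in H3K9me3. The 4706 shared CpGs had a median of 9 calls in H3K4me1 and 7 in H3K9me3, so a single call moved a level by up to 20 points. There was no replicate library of either mark, and every interval and test below covers counting error in these libraries only. Calls are not independent molecules where amplified copies remain or where neighbouring CpGs lie on the same read or read pair.

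Of the shared CpGs 53.1% were at or below 20% in both libraries, ribosomal RNA CpGs described below among them. Differences of 50 points or more were nearly all toward H3K9me3. The median CpG level was 3.57% in H3K4me1 and 16.7% in H3K9me3. At 1224 CpGs both libraries were at 0%, and at 30 both were at 100%. The median difference was 4.76 points, with quartiles at 0 and 23.3 points and a range from -71.4 to 100. H3K9me3 was above H3K4me1 at 2541 CpGs, equal at 1327 and below at 838.

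By the 50-point rule 431 CpGs were higher in H3K9me3 (9.16%) and 18 were higher in H3K4me1 (0.382%). The 431 CpGs had a median level of 11.1% in H3K4me1 and 83.3% in H3K9me3, and the 18 had 83.3% and 25.8%. At 33 CpGs the H3K4me1 library was at 0% and the H3K9me3 library at 100%, and at 0 CpGs was the reverse seen. With levels split at 20% and 80%, 2497 CpGs (53.1%) were at or below 20% in both libraries, and 176 were at or above 80% in both. There were 159 CpGs at or below 20% in H3K4me1 and at or above 80% in H3K9me3, against 2 in the opposite corner.

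**Figure D1:**
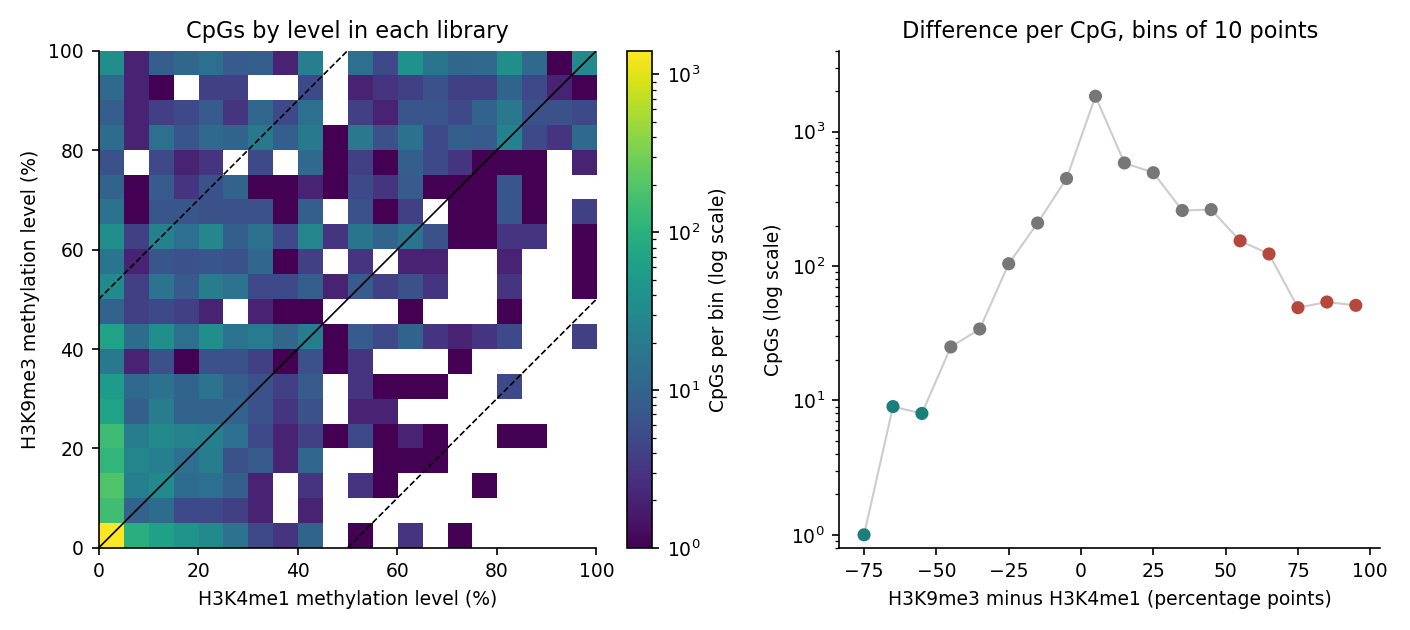
Left, the number of CpGs (colour, log scale) in bins of 5 points by methylation level in the H3K4me1 library (horizontal axis, %) and the H3K9me3 library (vertical axis, %), with the line of equality and dashed lines 50 points above and below it. Right, the number of CpGs (log scale) by difference in points, with the 431 CpGs higher in H3K9me3 in red and the 18 higher in H3K4me1 in green; the fullest bin sits at the origin and the upper left is filled while the lower right is nearly empty.

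The depth at each CpG set how much of this could be resolved. CpGs with exactly 5 calls in the shallower library, just inside the rule, were higher in H3K9me3 in 10.3% of 1922 and higher in H3K4me1 in 0.572%. Those with 4 calls, just outside it, gave 13.3% and 1.53% of 3858. With at least 10 calls in each library, 47 of 728 CpGs were higher in H3K9me3 and 0 in H3K4me1. Most of these 47 lay in a single interval, between Dlk1 and Meg3.

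Fisher's exact test of the calls at each CpG (two-sided, Benjamini-Hochberg over all 4706) called 68 CpGs with H3K9me3 higher (1.44%) and 0 with H3K4me1 higher (0%). At an unadjusted p under 0.05 the counts were 390 and 3. The test compares these libraries and not the marks. Of the 68 CpGs, 62 also met the 50-point rule. At 5 calls against 5 the smallest p that this test can reach is 0.00794. The least extreme CpG called, in Pigl, had a p of 0.000714, so CpGs with 5 calls in both libraries could not be called. CpGs with 5 calls in only 1 library could be. An example is chr12:20263057, with 0 of 5 calls against 10 of 10 (adjusted p = 0.0299, Fisher's exact test). The count rested on the interval between Dlk1 and Meg3, which held 38 of the 68: with its CpGs left out, the same test over the remaining CpGs called 8, although 30 of the 68 lie outside it.

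A ribosomal RNA stretch and a few very deep sites weighed on the summary values and held few of the CpGs that differed. This stretch of 5602 bp on chromosome 17 (chr17:39843043-39848644) overlaps the ribosomal RNA gene Rn18s-rs5 and part of AY036118, which is listed as a lncRNA gene. It held 471 CpGs, 10% of those covered, and 0 of them reached 50 points. Its levels were 1.47% of 16970 calls in H3K4me1 and 3.08% of 5095 calls in H3K9me3. Without this stretch the median difference was 7.58 points and the share higher in H3K9me3 was 10.2%. The median levels without it were 7.69% in H3K4me1 and 20% in H3K9me3. Another 93 CpGs had 100 or more H3K9me3 calls, of which 44 lay in chr2:98662264-98667310, an interval known in mouse sequencing for pile-ups of satellite reads. The median levels of the 93 were 72.9% in H3K4me1 and 87.4% in H3K9me3, and 3 of them reached 50 points. Not all were high: 22 of them lay in Sfi1 (chr11:3193056-3193465), with medians of 10.6% in H3K4me1 and 39.5% in H3K9me3. The 1 on chromosome 14 was at 0% and 2.46%. Together the 93 CpGs carried most H3K9me3 calls: the level over all summed calls was 66.6% in H3K9me3 and 13.2% in H3K4me1, and 28.2% and 11.5% without them. Medians over CpGs are therefore used here in place of summed levels for the whole set.

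The CpGs higher in H3K9me3 were spread over peak classes and gene classes. By the authors' peaks, 2662 CpGs lay in a peak of both marks and 9.65% of them were higher in H3K9me3. In H3K9me3 peaks alone the share was 16.4% of 274, in H3K4me1 peaks alone 6.72% of 655, and outside both 7.62% of 1115. Without the Dlk1 to Meg3 interval the share in peaks of both marks was 7.68%, and without the ribosomal RNA stretch the share outside both was 13.2% of 644. Within 1000 bp of a gene start 13.4% of 380 CpGs were higher in H3K9me3, in gene bodies 11.8% of 1807 and between genes 6.63% of 2519. Without the Dlk1 to Meg3 interval the first of these shares was 8.78% of 353 and that in gene bodies 9.93% of 1762. By CpG density, the share was 8.33% of 3086 with 10 or fewer CpGs within 250 bp, 15.5% of 779 with 11 to 20, 12.3% of 415 with 21 to 40 and 0.469% of 426 with more than 40. Without the ribosomal RNA stretch the classes of 21 to 40 and of more than 40 gave 17.1% of 298 and 2.78% of 72, where the last is 2 CpGs. Chromosome 12 held 83 of the 431 among 193 covered CpGs (43.0%), or 20.7% of 121 without the interval between Dlk1 and Meg3. On the other chromosomes the share lay between 2.48% (chromosome 17, or 9.20% of 174 without the ribosomal RNA stretch) and 15.6% (chromosome 16). These shares are descriptions, since CpGs of 1 library share fragments and are not replicates.

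Neighbouring CpGs had like differences. When a CpG was higher in H3K9me3, the next covered CpG was also higher in 60.3% of 189 cases (Wilson 95% interval 53.2 to 67.0) at a distance of 50 bp or less. The Wilson interval counts pairs of CpGs as independent, although pairs can share a CpG, a run and reads, so it is too narrow. After any other CpG at that distance the share was 4.27% of 1827. Without the Dlk1 to Meg3 interval these shares were 51.0% of 151 and 4.18% of 1818. At 51 to 200 bp the shares were 37.1% of 70 and 6.58% of 608 (26.8% of 56 and 6.28% of 605 without the Dlk1 to Meg3 interval). At 501 to 2000 bp the shares were 32.1% of 28 and 10.1% of 199 (24% of 25 and 9.60% of 198 without it). Beyond 2000 bp, with the interval kept, the shares were 8.62% of 116 and 7.32% of 1393. Up to 75 bp, CpGs can lie on the same read, and CpGs farther apart can lie on the same read pair. The part of shared reads or read pairs was not tested in any class.

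**Figure D2:**
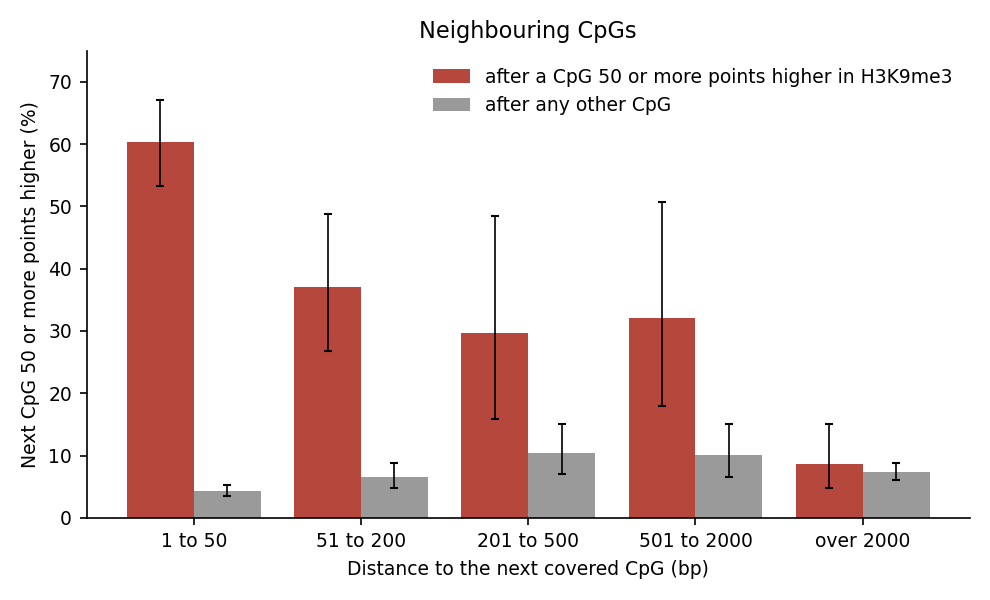
Share of next covered CpGs that were 50 or more points higher in H3K9me3 (vertical axis, %), by distance to the next CpG (horizontal axis, bp), after a CpG that was itself higher (red) and after any other CpG (grey). Bars are shares with Wilson 95% intervals, with the Dlk1 to Meg3 interval included. The Wilson intervals count pairs of CpGs as independent and are too narrow, since pairs can share CpGs and reads. The red bar stands at 60.3% at 1 to 50 bp and the bars meet beyond 2000 bp, at 8.62% and 7.32%.

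A run was taken as at least 3 consecutive covered CpGs that were all higher in the same library, with gaps of at most 500 bp. There were 24 runs higher in H3K9me3 and 0 higher in H3K4me1. The 24 held 139 of the 431 CpGs (32.3%) and had 3 to 20 CpGs over 24 to 649 bp. Their levels from summed calls were 0% to 29.4% in H3K4me1 (median 5.24%) and 52.2% to 97.1% in H3K9me3 (median 86.7%). Of the 24, 16 overlapped a gene and 8 lay between genes, and 4 lay within 1000 bp of a gene start. In 15 runs every CpG lay in peaks of both marks, in 2 in H3K9me3 peaks alone and in 6 in neither. Fisher's exact test called at least 1 CpG in 15 runs.

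**Figure D3:**
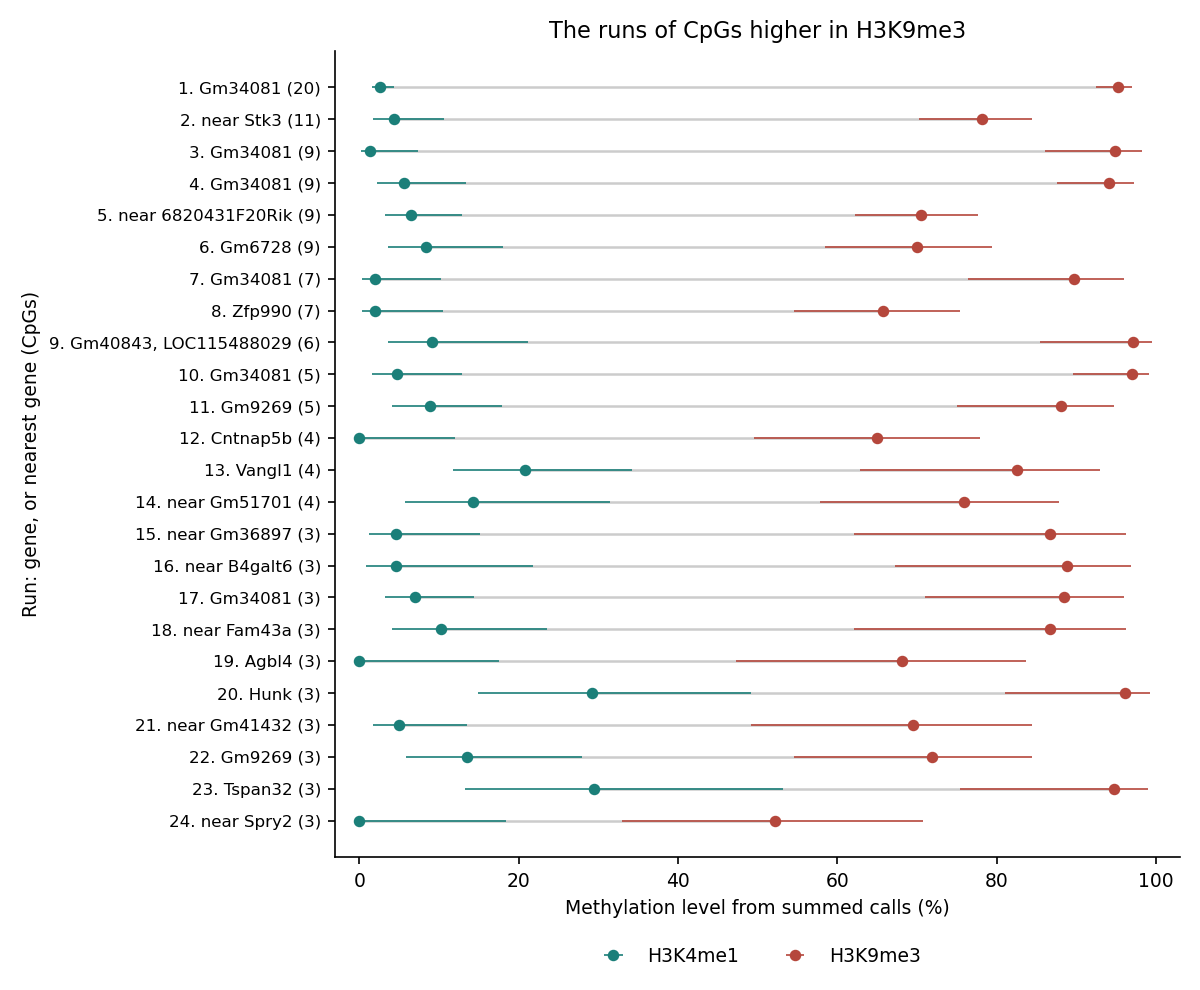
Methylation level from summed calls (horizontal axis, %) in the H3K4me1 library (green) and the H3K9me3 library (red) for each of the 24 runs, ordered by number of CpGs and labelled with the overlapping or nearest gene and the number of CpGs in parentheses. Points carry Wilson 95% intervals; the H3K4me1 points lie between 0% and 29.4% and the H3K9me3 points between 52.2% and 97.1%, and the gap within each run follows from how runs were chosen.

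The longest run and 5 others lay between Dlk1 and Meg3 on chromosome 12. Dlk1 encodes a transmembrane protein of the Notch ligand family expressed from the paternal chromosome, and Meg3 is a long non-coding RNA expressed from the maternal one. The control region of this domain lies between the genes and carries DNA methylation on the paternal copy. Here the interval between the gene spans held 72 covered CpGs, all of them within the span of Gm34081 (chr12:109493125-109540149). Of these, 58 were higher in H3K9me3 (80.6%), which is 13.5% of all such CpGs, and 53 of the 58 fell in the 6 runs. The median CpG level was 0% in H3K4me1 and 100% in H3K9me3, where no CpG was below 60%. The 58 CpGs lay 7397 to 15816 bp upstream of the Meg3 start.

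The longest run, chr12:109527497-109527894, had 20 CpGs in 398 bp, which are all the CpGs listed there. In H3K4me1 13 of 500 calls were methylated (2.6%, Wilson 95% interval 1.53 to 4.40), and in H3K9me3 340 of 357 (95.2%, 92.5 to 97.0). Fisher's exact test called 18 of its 20 CpGs. The smallest adjusted p was at 109527563, with 0 of 35 calls methylated in H3K4me1, which allows up to 8.57%, and 28 of 28 in H3K9me3 (adjusted p = 7.48e-15, Fisher's exact test). Toward Meg3 followed runs of 5 CpGs (chr12:109531011-109531222, 3 of 64 calls against 64 of 66), 7 CpGs (chr12:109532280-109532648, 1 of 51 against 35 of 39) and 3 CpGs (chr12:109533574-109533599, 6 of 86 against 23 of 26). Toward Dlk1 lay runs of 9 CpGs each, at chr12:109526596-109526736 (4 of 72 calls against 95 of 101) and at chr12:109525791-109526439 (1 of 73 against 56 of 59), the latter across the Gm34081 start printed above.

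The H3K4me1 library was not low across the whole interval. Just before the longest run, 4 CpGs at chr12:109527401-109527416 had 18 of 24 calls methylated in H3K4me1 (75%, Wilson 95% interval 55.1 to 88.0) and 58 of 61 in H3K9me3 (95.1%). The 5 CpGs at chr12:109527220-109527355 had 25 of 31 (80.6%, 63.7 to 90.8) and 45 of 45 (100%). Between these groups the CpG at 109527392 had 3 of 8 calls methylated in H3K4me1 and 15 of 15 in H3K9me3. The last CpG before the longest run lies 81 bp from its first CpG, so the H3K4me1 level of 75% and that of 2.6% are next to each other. The outermost covered CpGs, at 109523354 and 109538850, each had 5 of 7 calls methylated in H3K4me1 (71.4%) and all of 7 and 10 calls in H3K9me3. Of the 72 CpGs, 14 did not reach 50 points, and all 14 were at 60% or more in H3K4me1. The H3K27me3 library from 250000 cells, which the choice of CpGs did not use, had 44 of 48 calls methylated over 31 of these CpGs (91.7%, 80.4 to 96.7), with at most 3 calls at any of them.

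**Figure D4:**
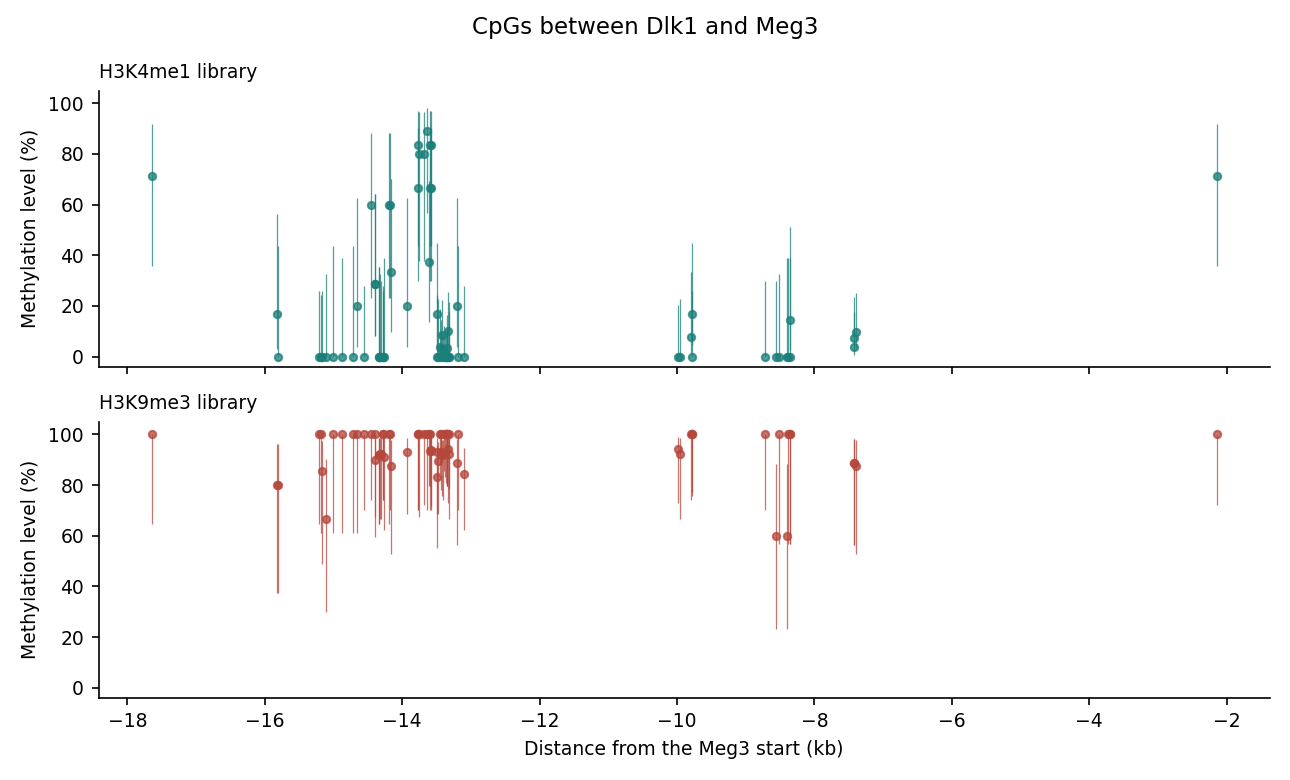
Methylation level (vertical axis, %) of the 72 covered CpGs between Dlk1 and Meg3 in the H3K4me1 library (upper panel) and the H3K9me3 library (lower panel), by distance from the Meg3 start (horizontal axis, kb; negative values lie toward Dlk1). Points are CpGs with Wilson 95% intervals; the H3K9me3 points all lie at 60% or above, and the H3K4me1 points are mostly at or near 0% with a group of higher CpGs next to the longest run.

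Outside this interval 18 runs remained, with 3 to 11 CpGs. The longest, chr15:34869619-34869848, lay between genes 5651 bp from Stk3, which encodes a kinase of the Hippo pathway. Its 11 CpGs had 4 of 92 calls methylated in H3K4me1 (4.35%, Wilson 95% interval 1.70 to 10.7) and 100 of 128 in H3K9me3 (78.1%, 70.2 to 84.4), and Fisher's exact test called 4 of them. A run of 9 CpGs at chr8:20267594-20267814, 472 bp from the gene 6820431F20Rik and in no peak of either mark, had 7 of 107 calls (6.54%) against 91 of 129 (70.5%). Another 9 CpGs in 53 bp of Gm6728 (chr6:136487091-136487143) had 5 of 60 (8.33%) against 49 of 70 (70%), and none of these was called by the test. The differences inside the Gm6728 run lay between 60 and 62.5 points, and its CpGs are close enough to share reads.

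Zfp990, a zinc finger gene of chromosome 4, held a run of 7 CpGs (chr4:145516367-145516697) with 1 of 50 calls methylated in H3K4me1 (2%) and 50 of 76 in H3K9me3 (65.8%). The Zfp990 run lay in no peak of either mark and none of its CpGs was called by the test. Most of them are close enough to share reads. On chromosome 12 a run of 6 CpGs covered 70 bp shared by Gm40843 and LOC115488029 (chr12:19246897-19246966), with 4 of 44 calls (9.09%) against 34 of 35 (97.1%). The H3K27me3 library, which the choice of CpGs did not use, had 9 of 196 calls methylated there. Gm9269 on the same chromosome held runs of 5 CpGs (6 of 68 calls against 37 of 42) and 3 CpGs (5 of 37 against 23 of 32), and 12 of the 14 covered CpGs in that cluster were higher in H3K9me3. Its CpG at chr12:20262180 had the smallest adjusted p outside the Dlk1 to Meg3 interval, 3.49e-05 by Fisher's exact test.

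Of the 18 runs, 12 had 3 or 4 CpGs, the second Gm9269 run among them. They included Cntnap5b, of the neurexin-like adhesion proteins, with 0 of 28 calls methylated in H3K4me1 and 26 of 40 in H3K9me3 (65%). The 0 of 28 allows up to 10.7% only if calls are independent. The 4 CpGs of the Cntnap5b run span 24 bp with 7 H3K4me1 calls at each and can share reads, which would loosen this limit. Vangl1, a planar cell polarity protein, had 10 of 48 (20.8%) against 19 of 23 (82.6%). Hunk, a protein kinase gene, had 7 of 24 (29.2%) against 25 of 26 (96.2%). In Tspan32, a tetraspanin gene, the run lay 35526 bp from the imprinted gene Cd81 and had 5 of 17 (29.4%) against 18 of 19 (94.7%). Runs near B4galt6, Fam43a, Spry2 and Gm41432 lay between genes, 19725 to 92644 bp from these nearest genes.

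Known imprinted genes were looked up from a list of 77 symbols, of which 76 are on chromosomes 1 to 19. Only 10 had a covered CpG within the gene or 5000 bp of it, 20 CpGs in all, so most imprinted loci could not be compared at this depth. Of the 20 CpGs 4 were higher in H3K9me3 (20%, against 9.16% of all covered CpGs) and 0 in H3K4me1. The Dlk1 to Meg3 runs lie beyond 5000 bp of both genes and are not among the 20. The 4 were among the 13 CpGs at genes with a control region methylated on the maternal copy, while genes with one methylated on the paternal copy had 1 covered CpG, so the kinds of control region could not be compared.

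At the Gnas locus, which encodes the stimulatory G protein alpha subunit and its antisense RNA Gnasas1, 8 CpGs were covered and 2 were higher in H3K9me3. At chr2:174292689 1 of 12 calls was methylated in H3K4me1 (8.33%, Wilson 95% interval 1.49 to 35.4) and 10 of 10 in H3K9me3 (adjusted p = 0.00471, Fisher's exact test). At chr2:174292613 the values were 1 of 6 (16.7%) and 9 of 9 (adjusted p = 0.0950, Fisher's exact test). The 3 CpGs from 174289714 to 174289825 were methylated in both libraries, at 50% to 85.7% in H3K4me1 and 85.7% to 100% in H3K9me3. The CpG at 174288089 had 0 methylated calls of 8 and of 5. At 174299992 the values were 0 of 5 against 2 of 5, and at 174300000 1 of 5 against 3 of 5, each a difference of 40 points. The H3K27me3 library had 0 of 35 and 1 of 35 calls methylated at these CpGs.

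At Kcnq1ot1 the CpG printed in capitals above, chr7:143296757, had 0 of 6 calls methylated against 7 of 9, a difference of 77.8 points (adjusted p = 0.204, Fisher's exact test). At Grb10, a growth-inhibiting adaptor gene, chr11:11949118 had 2 of 52 (3.85%) against 3 of 5 (60%, adjusted p = 0.124, Fisher's exact test), and its neighbour at 11949177 had 0 of 59 against 1 of 5 (20%). These 2 loci rest on 5 to 9 H3K9me3 calls, and neither passed the test. At the host gene and retrogene pair Commd1 and Zrsr1 the shared CpG had 6 of 7 against 5 of 5. Ddc, an enzyme gene next to Grb10, had 5 covered CpGs with differences from -23.3 to 0 points.

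Among gene families, symbols beginning with Zfp had 102 covered CpGs in or near 23 genes, and 20 of them were higher in H3K9me3 (19.6%, against 9.16% overall). Zfp990 held 7 of the 20, all in the run given above, and Zfp668 held 3, with 2 each in Zfp704, Zfp978 and Zfp553. At Zfp668 the 3 CpGs were close neighbours, and the first, chr7:127867822, had 2 of 5 calls methylated in H3K4me1 against 51 of 51 in H3K9me3 (adjusted p = 0.0309, Fisher's exact test). Vomeronasal receptor genes and pseudogenes had 2 of 25 covered CpGs higher in H3K9me3, and olfactory receptor genes 0 of 3. Germline genes known for promoter methylation, pluripotency genes, housekeeping genes, genes for DNA methylation and H3K9 factors and clustered protocadherins had 0 covered CpGs, so the comparison says nothing of them.

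Among protein-coding and lncRNA genes, 206 had at least 3 covered CpGs within the gene. After Gm34081, Klf3 and Vangl1 had the most CpGs higher in H3K9me3, with 8 each, while the pseudogenes Gm9269 and Gm6728 are outside this count and had 12 and 9. Klf3 encodes a Krüppel-like transcriptional repressor, and 8 of its 26 covered CpGs were higher in H3K9me3, at a median level of 40% in H3K4me1 and 85.7% in H3K9me3 over the 26. In Vangl1 the count was 8 of 18. Pigl, an enzyme gene of the glycosylphosphatidylinositol anchor pathway, had 6 of 21, and its CpG at chr11:62506426 had 2 of 12 calls against 8 of 8 (adjusted p = 0.0494, Fisher's exact test). Hunk had 5 of 31.

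Levels at gene starts were mostly low in both libraries. With levels summed over covered CpGs within 1000 bp of a start and at least 3 such CpGs, 51 promoters had values. By the 50-point rule 2 were higher in H3K9me3 (3.92%) and 0 in H3K4me1 (0%). The median difference was 0.521 points, 35 promoters were at or below 20% in both libraries, and 17 had no methylated call in either. LOC115488029 had the largest difference, 88.1 points, from the run of 6 CpGs given above. Those 6 CpGs cover 70 bp with 5 or 6 H3K9me3 calls at each and can share reads. Fisher's exact test called 1 of them. Gm34081 followed with 26 CpGs, at 30 of 188 calls methylated (15.96%, Wilson 95% interval 11.4 to 21.9) against 224 of 235 (95.3%, 91.8 to 97.4), a difference of 79.4 points.

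Another 14 promoters differed by 10 to 50 points, all with H3K9me3 above. They were led by Gm31684 (22 of 95 calls against 43 of 65, 43.0 points), Gm34724 (13 of 51 against 10 of 15, 41.2 points) and the telomere-binding protein gene Terf1 (1 of 35 against 19 of 44, 40.3 points). Next came Gm51802 at 34.3 points, Rapgef3os2 at 29.7, Gm46429 at 25.9, the sensory-neuron membrane protein gene Pirt at 25.4 and Gm33905 at 24.4. For Gm34724, Terf1 and Pirt the start is the gene end with more CpGs, since no start was listed for them. In the other direction the largest difference was -4.89 points, at Gm15564 (9 of 184 calls against 0 of 57). The 0 of 57 allows up to 5.26% only if calls are independent. Gm15564 was followed by D10Wsu102e, Rab1a, Plekhf1, Asb8, Gm12052 and 2900041M22Rik between -4.76 and -0.943. Trim24, whose start is printed above, had 0 of 72 calls methylated in H3K4me1 over 14 CpGs and 1 of 192 in H3K9me3. The 0 of 72 allows up to 4.17% only if calls are independent. The zinc finger promoters with values, Zfp936, Zfp808, Zfp932 and Zfp267, differed by 0 to 1.99 points.

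**Figure D5:**
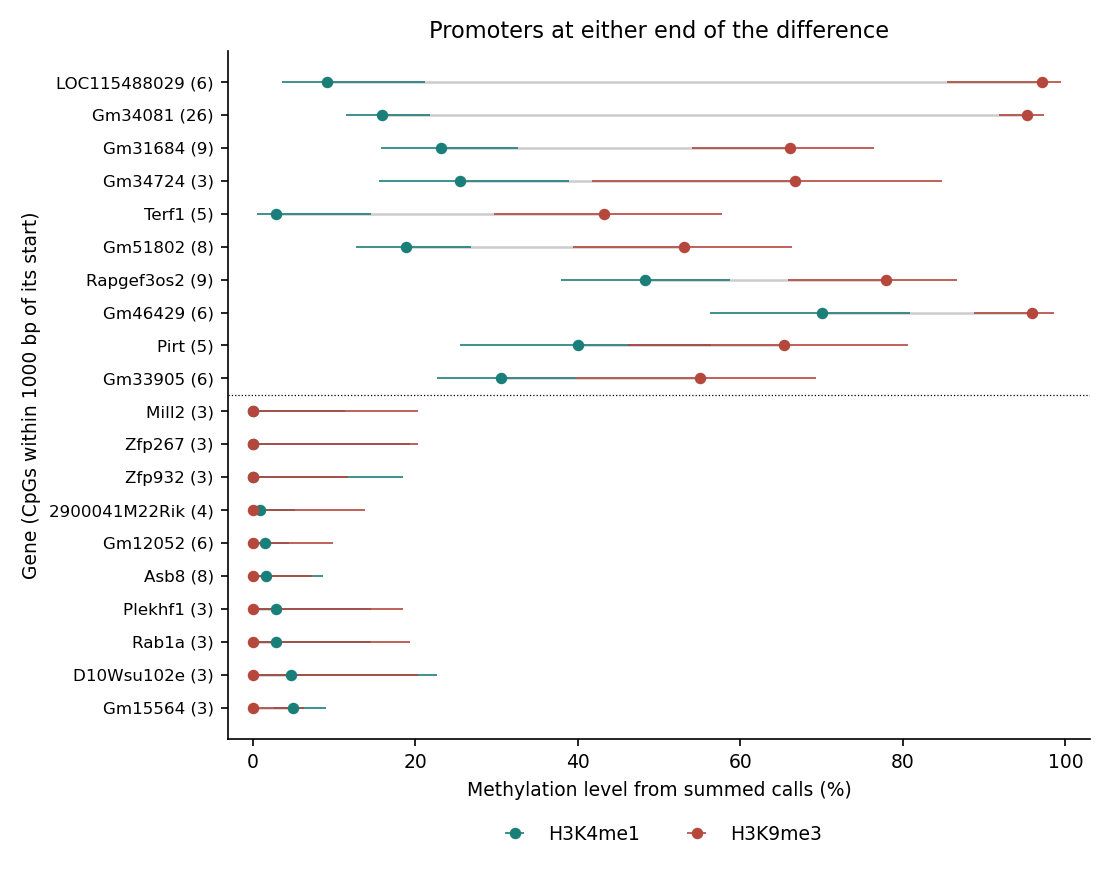
Methylation level from summed calls (horizontal axis, %) in the H3K4me1 (green) and H3K9me3 (red) libraries for the 10 promoters at the top and, below the dotted line, the 10 at the bottom of the ranking by difference, with the number of covered CpGs in parentheses. Points carry Wilson 95% intervals; at LOC115488029 and Gm34081 the intervals are far apart, and in the lower 10 every H3K9me3 point is at 0%.

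The 18 CpGs higher in H3K4me1 were scattered. None lay in a run, and the smallest adjusted p among all CpGs with H3K4me1 above was 0.113 by Fisher's exact test. That CpG, chr8:78624132 in the transporter gene Slc10a7, was the deepest in H3K4me1 of the 18, with 14 of 18 calls methylated in H3K4me1 (77.8%) and 1 of 9 in H3K9me3 (11.1%). Others lay in the interferon-induced gene Ifitm3, in Mypn, Muc13 and Tnfrsf21, with 5 to 7 calls in each library.

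The H3K27me3 library, from another mark that played no part in choosing the CpGs, covered few of them. Of the 431 CpGs higher in H3K9me3, 24 had at least 5 H3K27me3 calls, with a median level of 9.72%: 17 were at or below 20%, 5 between and 2 at or above 80%. The last 2 were chr12:3109923 and chr12:3110026, with 513 and 410 H3K9me3 calls. Among CpGs that differed by less than 50 points, 815 had this depth, with a median of 3.33%. Of these 702 were at or below 20%, 49 between and 64 at or above 80%. Many of the 815 lie in the ribosomal RNA stretch, with a median of 63 H3K27me3 calls per CpG and 1003 of 30683 calls methylated. The 93 CpGs with 100 or more H3K9me3 calls all had this depth, at a median of 83.6%. With these sites included, low levels were not particular to the 24. The group without them was not examined. Of the CpGs at or below 20% in H3K4me1 and at or above 80% in H3K9me3, 9 had this depth and were at or below 20% in H3K27me3, but 6 of the 9 are the Gm40843 and LOC115488029 run. Where both libraries were at or above 80%, the median H3K27me3 level was 86% over 37 CpGs, and where both were at or below 20% it was 2.5% over 648. Ribosomal RNA CpGs are also among the 648. The Dlk1 to Meg3 interval, at 91.7% in H3K27me3, had at most 3 calls per CpG in that library and so is not among the 24.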

How the data were processed

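The authors deposited a table of methylated and all read counts per CpG and library on mm10, per the file headers and the submitters' processing notes. Those notes name cutadapt 1.12, Bismark 0.23.0, Bowtie2 2.3.0, HOMER 4.10.3 and bedtools 2.29.2, and the treatment of duplicate reads is not given in the sources used here, so amplified copies may inflate the counts. The deposited peak intervals were used only to place CpGs. The CpG counts came from the run 2 columns of 1 H3K4me1 and 1 H3K9me3 library, with at least 5 calls in each.

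Levels, Wilson 95% intervals, limits of 3 counts at a count of 0, and Fisher's exact tests with Benjamini-Hochberg adjustment at 0.05 were computed in Python 3.11.15 with scipy 1.17.1, numpy 2.4.6 and pandas 2.3.3, and the test and the run finder were tested on simulated data. Promoters were ±1000 bp of a RefSeq start, at the start with the most covered CpGs, or, without a listed start, of the gene end with more CpGs. The RefSeq tables (GRCm38.p6) give gene spans and no exons. All 395568 CpGs in their promoter sequences had the same position in the deposited table. Named by rule were the 10 runs with the most CpGs, listed imprinted genes with a covered CpG, the 10 promoters with the largest difference in each direction, and up to 4 promoters per comparison list. The comparisons, CpG choice and gene lists were made with earlier results of these data known, and the Dlk1 to Meg3 interval, the strata by depth, density and neighbour distance, the gene-span counts, the shorter runs named, other genes named for single CpGs or counts, and the printed sequences were chosen after values were seen.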

Additional observations from a re-analysis of the deposited data

Results flagged for a closer look

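Outside chromosomes 1 to 19, the mitochondrial genome had 72 CpGs with at least 5 calls in each library. At 4 of them the H3K4me1 level was 50 or more points above the H3K9me3 level. Mitochondrial CpGs can share reads, and this count was not tested. Over these 72 CpGs 15.9% of 477 calls were methylated in H3K4me1 (Wilson 95% interval 12.9 to 19.5) and 0.839% of 834 in H3K9me3 (0.407 to 1.72). This is the opposite direction to chromosomes 1 to 19, and the mitochondrial CpGs enter no other count.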

How the results depend on the processing

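H3K9me3 was the higher library under every alternative run, except that the median difference was 0 with a minimum of 3 calls, and 0 runs and 0 promoters were higher in H3K4me1 under any of them. Depth set the counts: with a minimum of 3 calls the median difference was 0 points, 2250 CpGs were higher in H3K9me3 and 288 in H3K4me1, Fisher's exact test called 41 with H3K9me3 higher and there were 97 runs, while with a minimum of 10 calls 47 and 0 CpGs were higher and 3 runs were left. At 40 points 694 and 43 CpGs and 40 runs were found, and at 70 points 154 and 1 CpGs and 9 runs. Benjamini-Hochberg at 0.01 left 41 CpGs. Runs of at least 2 CpGs numbered 57 and of at least 5 CpGs 11. For promoters, 1 was higher in H3K9me3 with a window of 500 bp and 1 with at least 10 CpGs. Chosen after seeing the data (as were the shares given without a locus), leaving out the CpGs between Dlk1 and Meg3 gave 8 CpGs past Fisher's exact test and 1 promoter, and leaving out the ribosomal RNA CpGs of chromosome 17 gave a median difference of 7.58 points. Leaving out CpGs with 100 or more H3K9me3 calls, capping calls at the 99th percentile, gaps of 200 or 2000 bp, a window of 2000 bp, at least 5 CpGs per promoter and the mean of CpG levels kept every count within 1.5 times. Beyond the fewer or more CpGs that each alternative admits, the cause was not tested. No paired analysis was possible because each mark has 1 library, and run 1 and run 2 sequence the same one. For the same reason no replicate could be left out.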
